A study of Rattus norvegicus with 11 samples.

Results

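The comparison is between the kidneys of 3 obese rats given enalapril and those of 4 untreated obese rats. All cells that the deposited table places in either group were taken, with no choice by any measured value. They came to 85065 of 114615 cells (74.2%), with 37202 cells from treated and 47863 from untreated animals. The animal, read from the sample code of each cell, was the replicate. All were male ZSF1 rats with the labelled genotype ZSF1-LeprfaLeprcp/Crl, 12 weeks old on arrival and fed a high-energy chow. Per the labels' protocols, obese rats were assigned at random to vehicle or enalapril in the drinking water, and the drug concentration was reset each week from body mass and the mean water intake of the cage. The labels give the untreated obese rats no treatment, while the protocol gives them vehicle. Neither the dose nor the length of treatment is stated in the labels. The 4 lean rats of the study were not compared here. They did enter the edgeR and DESeq2 fits of cell type counts, where they help set the spread. Elsewhere they entered only alternative fits, or are named where their level helps to place a value.

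The ZSF1 obese rat carries a defective leptin receptor, is obese, hypertensive and diabetic, and is used as a model of diabetic kidney disease. Enalapril inhibits angiotensin-converting enzyme, which makes angiotensin II, the peptide that constricts the efferent arteriole of the glomerulus and, through aldosterone, drives sodium uptake in the distal nephron. In diabetic kidneys, monocytes, macrophages and T cells enter the tissue. The proximal tubule, a mitochondria-rich epithelium like the thick ascending limb, carries the largest share of the reabsorptive work. The table asks what these cell classes look like with and without the drug, but it gives no gene values, so the authors' cell type names could not be checked against their markers and no gene could be tested. As commonly used for the kidney, PCT and PST are convoluted and straight proximal tubule, DTL the descending thin limb, TAL the thick ascending limb, MD the macula densa, DCT and CNT the distal convoluted and connecting tubule, PC the principal cells and IC-A and IC-B the intercalated cells of the collecting duct, GEC the glomerular endothelial cells and Podo/Stroma podocytes or stroma.

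Between 7052 and 18427 cells were deposited per untreated animal and between 7802 and 17948 per treated animal. Median UMIs were 1939.5 to 3092 and 1132 to 2737 per cell. For each library 10000 cells are listed as loaded. More than that were deposited for obese rats 1 (10844), 3 (11540) and 4 (18427) and treated rats 1 (17948) and 2 (11452). Whether these libraries hold doublets or near-empty droplets was not tested. Treated rat 1 stood apart from the rest. It had the lowest median UMIs (1132), the lowest median mitochondrial percent (4.56%), and 56.1% of its cells reached 1000 UMIs, against 80.8% to 90.9% in the other 6 animals. The 21 pairs of libraries shared 12 to 85 cell barcodes, at most 0.681% of the smaller library. Treated rats 1 and 2, obese rats 1 and 2, and obese rats 3 and 4 share the stem of their sample code. Its meaning is not given and no stem holds both groups, so what a stem stands for and the treatment cannot be told apart. The labels number the animals of a group and say nothing more of their source, so a p-value here measures the spread between these animals.

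The balance between immune and nephron cells differed between the groups. For every cell of the nephron and collecting duct, the untreated rats had 0.497, 0.704, 0.600 and 0.529 immune cells, and the treated rats had 0.180, 0.221 and 0.297. The highest treated animal lay below the lowest untreated one. The ratio fell by 1.34 ± 0.29 on the log2 scale (SE, limma, adjusted p = 0.0340 over 25 ratios), from a mean of 0.582 ± 0.0918 (SD, n = 4) to 0.232 ± 0.0595 (SD, n = 3). The exact two-sided permutation p was 0.0571, the smallest that 3 against 4 animals allow. Lean rats had 0.182 ± 0.0992 immune cells per nephron cell (SD, n = 4). Lean rat 2, the lowest of them at 0.0870, was a far shallower library, with a median of 407 UMIs and 0.284% of cells at 1000 UMIs or more. The lean level is therefore a rough guide only.

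Measured against the proximal tubule alone, immune cells numbered 0.646, 1.07, 1.00 and 0.598 per proximal cell in untreated rats and 0.223, 0.305 and 0.396 in treated rats, again without overlap. This ratio fell by 1.42 ± 0.34 on the log2 scale (limma, adjusted p = 0.0340). Both calls rest on the same immune cells, and the proximal tubule makes up most of the nephron cells, so they are not separate results. A ratio does not tell fewer immune cells from more nephron cells, and neither gives the number of cells in the kidney. These were 2 of the 25 ratios tested (8% called). Both calls were lost when lean rats entered the fit (adjusted p = 0.0607 each in limma) and when only cells under the median mitochondrial percent were counted (0.102 each). In those cells the differences were larger but with a wider SE, at -1.635 ± 0.562 and -1.711 ± 0.573. The calls were also lost without obese rat 2 (0.0947 and 0.110 in the order above), obese rat 3 (0.110 each), treated rat 1 (0.0898 each) or treated rat 2 (0.135 each). When each ratio kept its own spread, the nephron ratio was called (adjusted p = 0.0424) and the proximal ratio was not (0.0875).

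**Figure D1:**
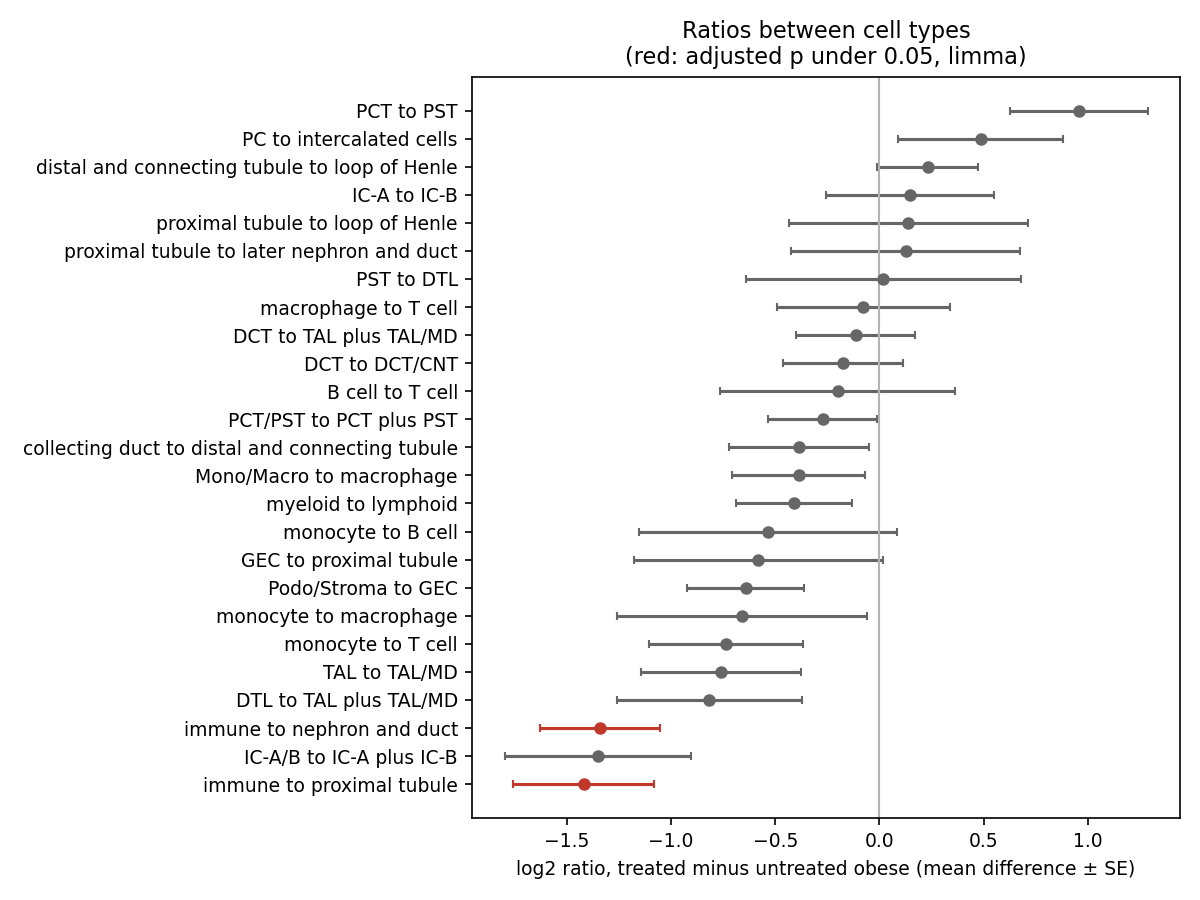
Difference in each of 25 log2 ratios between cell types, treated minus untreated obese rats, as points with the SE of limma's fit as bars. Red marks an adjusted p under 0.05. The immune ratios to the whole nephron (-1.34) and to the proximal tubule (-1.42) are the red points on the left, and PCT to PST (0.96) lies farthest to the right.

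Shares of the 20 cell types showed the same balance in their parts, though no type passed the main test. edgeR, fitted with the lean rats, called 0 of 20 types (0% called), with 2 at an unadjusted p under 0.05. Fitted on the 7 obese and treated animals alone, edgeR called 1 (smallest adjusted p = 0.0473). DESeq2, with the lean rats, called 1, the monocytes. The groups did not overlap for 4 of 20 types (20%). The fitted difference was below 0 in 10 of 20 types (50%) and above 0 in the other 10 (50%). All 5 immune types had a lower mean share in treated rats, with a median log2 difference of -0.95, against -0.09 over all 20 types. Monocytes, the circulating precursors of tissue macrophages, made up 7.44%, 14.8%, 11.7% and 11.4% of the cells of untreated rats and 4.98%, 2.98% and 4.15% of those of treated rats (edgeR log2 difference -1.48 ± 0.46, adjusted p = 0.0932). T cells were at 15.2%, 14.1%, 16.2% and 14.5% against 7.57%, 9.48% and 10.1% (-0.73 ± 0.42, adjusted p = 0.340). For both types every treated animal lay below every untreated one. The same held for Mono/Macro cells, a name that spans both myeloid types, at 1.71%, 1.67%, 1.81% and 1.29% against 0.440%, 0.629% and 1.22% (-1.10 ± 0.45, edgeR, adjusted p = 0.240). B cells (-0.95 ± 0.52, adjusted p = 0.337; -0.47 without obese rat 4 and -1.64 without treated rat 3) and macrophages (-0.64 ± 0.48, adjusted p = 0.440) overlapped between the groups.

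Of the 12 nephron and duct types, 9 had a higher mean share in treated rats, with a median log2 difference of 0.31. PCT, which takes up most filtered glucose, amino acids and sodium, was the type without overlap in that direction. It held 25.3%, 18.2%, 21.0% and 32.4% of untreated cells and 42.7%, 39.3% and 35.7% of treated cells (edgeR 0.70 ± 0.37, adjusted p = 0.337). In the cells with a mitochondrial percent under the median the difference was 1.32 ± 0.51 (edgeR, adjusted p = 0.123). This filter keeps unlike parts of the cells of each animal. At least 10% mitochondrial UMIs were found in 64.4% to 75.5% of the proximal cells of untreated rats. In treated rats 1, 2 and 3 the percents were 28.2%, 61.0% and 80.2%. The part of the filter in the larger difference was not tested. TAL/MD cells, the ascending limb with the salt-sensing macula densa, had means of 3.34% ± 1.66 and 5.41% ± 1.38 (0.70 ± 0.49, adjusted p = 0.426), and DCT/CNT cells 1.64% ± 0.628 and 2.40% ± 0.468 (0.55 ± 0.47, adjusted p = 0.518). DTL cells went the other way, at 2.74% ± 1.44 and 1.90% ± 0.364 (-0.53 ± 0.52, adjusted p = 0.593). PST cells, the straight part that follows PCT, were at 8.87% ± 2.49 and 7.41% ± 1.14 (-0.26 ± 0.41, adjusted p = 0.670), and PCT/PST cells at 10.7% ± 3.76 and 12.2% ± 2.12 (0.20 ± 0.41, adjusted p = 0.680). IC-A/B cells had the largest difference among these types, at 1.47% ± 0.800 and 0.698% ± 0.161 (-1.06 ± 0.54, adjusted p = 0.337), and -0.68 ± 0.54 without obese rat 3. TAL cells (0.09 ± 0.38) and DCT cells (0.34 ± 0.44) differed by less than their SE. In obese rat 4 DTL made up 0.608% of the cells, against 3.21% to 3.74% in the other untreated rats.

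**Figure D2:**
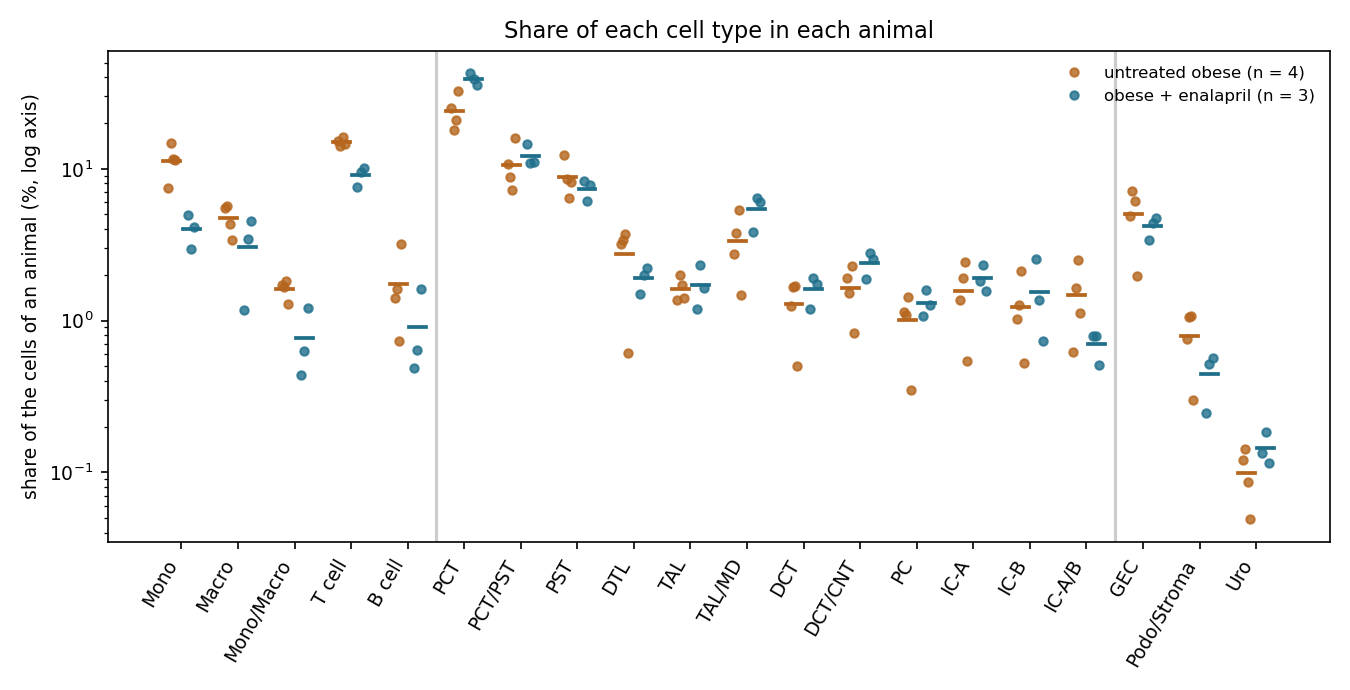
Share of each of 20 cell types among the cells of an animal, in percent on a log axis, with 1 point per animal and a line at the group mean. Grey lines separate the immune types, the nephron and duct types and the remaining types. The treated points lie below all untreated points for Mono, Mono/Macro and T cells and above all of them for PCT.

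The 14 ratios between nephron and duct segments had a median log2 difference of -0.05 and 0 called. On that scale 7 were lower and 7 higher in treated rats, though each sign depends on which type was set as numerator. Within the proximal tubule, convoluted cells outnumbered straight cells 2.05, 2.11, 3.28 and 3.96 to 1 in untreated rats and 5.17, 6.42 and 4.54 to 1 in treated rats. All treated animals lay above all untreated ones, yet the difference of 0.96 ± 0.33 on the log2 scale did not pass limma's test (adjusted p = 0.117). It passed without obese rat 4 (1.14 ± 0.30, limma, adjusted p = 0.0261) but in no other fit that left out 1 animal. Without obese rat 1 it was 0.82 ± 0.35 (limma, adjusted p = 0.251). In the cells whose mitochondrial percent lay under the median it was only 0.54 ± 0.51 (limma, adjusted p = 0.480). In lean rats the ratio was 8.86 ± 2.16 (SD, n = 4), with the shallow lean rat 2 at 7.93. The joint PCT/PST type, a name that spans both segments, had 0.318 ± 0.0557 cells per PCT or PST cell in untreated and 0.261 ± 0.0246 in treated rats (-0.27 ± 0.26, limma, adjusted p = 0.572).

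Among the intercalated cells, which secrete acid (type A) or base (type B), the joint IC-A/B type had a lower mean ratio to the others in treated rats. IC-A/B cells were also the shallower, with a mean over untreated rats of 1051 median UMIs, against 5429 for IC-A and 5368 for IC-B. The part of depth in this ratio was not tested. There were 0.260, 0.517, 0.550 and 1.06 IC-A/B cells per IC-A or IC-B cell in untreated rats and 0.183, 0.215 and 0.226 in treated rats. The groups did not overlap, and the difference was -1.35 ± 0.45 on the log2 scale (limma, adjusted p = 0.117). Leaving out obese rat 1, the untreated animal nearest to the treated ones, it was -1.70 ± 0.37 and passed (limma, adjusted p = 0.0357). The difference passed in no other fit that left out 1 animal, and was -1.02 ± 0.34 without obese rat 4 (limma, adjusted p = 0.0653). In the cells with a mitochondrial percent under the median it was -2.92 ± 0.96 (limma, adjusted p = 0.102). The ratio of type A to type B ranged from 1.02 to 1.503 in untreated rats and was 0.714, 1.69 and 2.13 in treated rats, so the treated animals lay on both sides. Principal cells, which take up sodium under aldosterone, numbered 0.243 ± 0.0947 per intercalated cell in untreated and 0.340 ± 0.124 in treated rats (0.49 ± 0.40, limma, adjusted p = 0.572).

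In the loop of Henle, DTL cells numbered 0.786, 0.591, 0.528 and 0.213 per thick limb cell in untreated rats and 0.3001, 0.228 and 0.291 in treated rats. Obese rat 4 was lower than all treated rats. The difference over all animals was -0.82 ± 0.44 on the log2 scale (limma, adjusted p = 0.317). Without obese rat 4 it was -1.21 ± 0.28 and passed (limma, adjusted p = 0.0163). It passed in no other fit that left out 1 animal, and was -0.58 ± 0.45 without obese rat 1 (limma, adjusted p = 0.492). TAL cells numbered 0.497, 0.523, 0.322 and 0.956 per TAL/MD cell in untreated and 0.312, 0.365 and 0.272 in treated rats (-0.76 ± 0.38, limma, adjusted p = 0.287). These 2 types also differed in depth, with a mean over untreated rats of 1076.5 median UMIs for TAL and 3895 for TAL/MD. The proximal tubule as a whole had 3.61 ± 2.83 cells per cell of all later segments in untreated and 3.26 ± 0.795 in treated rats, while the mean log2 value differed in the other direction (0.13 ± 0.55, limma, adjusted p = 0.893). The wide untreated spread came from obese rat 4, at 7.69, against 1.49 to 3.31 in the other 3.

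The name Podo/Stroma spans podocytes and stroma, so these cells need not all lie in the glomerulus. They numbered 0.155, 0.149, 0.175 and 0.152 per glomerular endothelial cell in untreated rats and 0.0727, 0.118 and 0.119 in treated rats. The untreated values lay close together and above every treated value (-0.64 ± 0.28, limma, adjusted p = 0.253). Each animal gave 44 to 123 Podo/Stroma cells, and their share was 0.792% ± 0.359 in untreated and 0.441% ± 0.172 in treated rats. The endothelial cells, which line the filter, were at 5.02% ± 2.22 and 4.19% ± 0.700 of cells (edgeR -0.26 ± 0.56, adjusted p = 0.680). In all, 6 of 25 ratios (24%) showed no overlap between the groups. In treated rats 18 (72%) had a lower and 7 (28%) a higher mean log2 value. By the plain means of the ratios, 20 were lower and 5 higher. These counts depend on which type of each ratio was set as numerator, and many ratios share cell types.

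The 7 ratios within the immune cells all had a lower mean log2 value in treated rats, with a median difference of -0.41. Of these, 0 passed the test. The sign of each depends on which type was set as numerator, and the ratios share cell types. Their common sign is therefore not a shift in 1 direction. Myeloid cells numbered 0.880, 1.41, 1.05 and 0.904 per lymphoid cell in untreated rats and 0.819, 0.695 and 0.846 in treated rats, without overlap (-0.41 ± 0.28, limma, adjusted p = 0.487). T cells made up 43.9% ± 4.99 of the immune cells of untreated and 51.2% ± 4.28 of those of treated rats. Monocytes made up 32.5% ± 6.32 and 23.5% ± 9.13.

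The ratio of monocytes to macrophages split the treated animals. It was 1.36, 2.58, 2.67 and 3.34 in untreated rats, 4.23 in treated rat 1, and 0.870 and 0.913 in treated rats 2 and 3. Treated rat 1 was thus above and the other treated rats below all untreated animals (-0.66 ± 0.60, limma, adjusted p = 0.572). Macrophages made up 1.18% of the cells of treated rat 1 and 3.42% and 4.55% of those of treated rats 2 and 3, against 3.40% to 5.71% in untreated rats. Monocytes per T cell were 0.489, 1.05, 0.720 and 0.782 in untreated and 0.658, 0.314 and 0.410 in treated rats (-0.74 ± 0.37, limma, adjusted p = 0.287). Macrophages per T cell were 0.317 ± 0.0790 and 0.322 ± 0.151, and here too the log2 difference had the other sign (-0.08 ± 0.41, limma, adjusted p = 0.893).

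Cell types also differ in how many RNA molecules a droplet yields, counted as UMIs. In treated rats the nephron and duct cells had more UMIs than the immune cells of the same animal, by 0.44, 0.40 and 0.51 on the log2 scale of the medians. In untreated rats this gap was 0.01, -0.46, 0.10 and -0.51, below every treated animal. The gap was 0.66 larger in treated rats (exact two-sided permutation p = 0.0571, adjusted p = 0.210 over 11 values per animal). None of these 11 values was called (0 of 11), and no adjusted p was under 0.210. This test could call none of them. Its smallest p with 3 against 4 animals is 0.0571, above the threshold of 0.05. Among cells with at least 1000 UMIs the gap was 0.48 larger. Shares can move with such a gap wherever cells are kept by a minimum of UMIs, and its part in the ratios above was not tested. Among cells with 1000 to 2000 UMIs, the immune share differed by -5.50 percentage points, against -16.6 among all cells. Among all cells with at least 1000 UMIs it differed by -20.5 points, and there both immune ratios remained called, at -1.69 ± 0.39 to the nephron and duct and -1.76 ± 0.43 to the proximal tubule (limma, adjusted p = 0.0301 each).

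**Figure D3:**
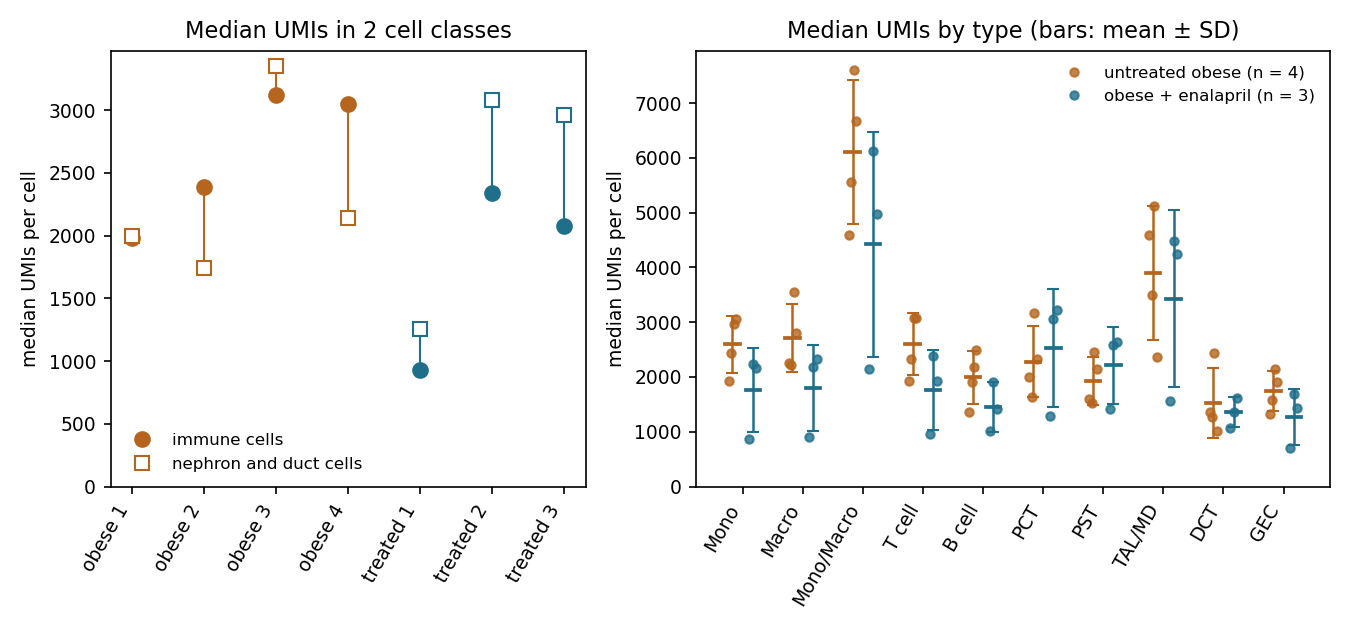
Median UMIs per cell. On the left, immune cells (filled circles) and nephron and duct cells (open squares) of each of the 7 animals are joined by a line. The square is above the circle in all 3 treated rats, and below it in obese rats 2 and 4. On the right, 10 cell types are shown with 1 point per animal, the mean and the SD.

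By type, limma called 0 of 19 types for median UMIs (0% called, 0 at an unadjusted p under 0.05, smallest adjusted p = 0.854), and the SE was 0.43 for each. The mean log2 value was lower in treated rats for 16 of 19 types (84.2%), among them all 5 immune types, with a median log2 difference of -0.64, against -0.17 for the 12 nephron and duct types and -0.27 for all 19. Macrophages had 2251, 2226, 3554 and 2802.5 UMIs in untreated and 897, 2174.5 and 2328 in treated rats. Monocytes had 1924, 2440, 2965 and 3059 against 876, 2239 and 2158. PCT cells had 2006, 1629.5, 3169.5 and 2325 against 1282, 3065 and 3223, and PST cells 1597.5, 1526, 2453 and 2137 against 1409, 2579 and 2642. T cells (-0.64), Mono/Macro cells (-0.57), GEC (-0.52), B cells (-0.47) and Podo/Stroma cells (-0.42) also had lower means, and DTL (-0.25), PCT/PST (-0.16), DCT (-0.11) and TAL (0.12) lay nearer to 0. Treated rat 1 was the lowest of the 7 animals for 17 of 19 types. With the animal's own median UMIs as a covariate, macrophages (-0.41 ± 0.13), monocytes (-0.39 ± 0.15) and T cells (-0.39 ± 0.14) stood lower and PST cells (0.37 ± 0.13) higher in treated rats, each at an adjusted p of 0.170 in limma.

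Genes per UMI measure how varied the transcripts of a cell are, and they fall as a cell is read more deeply. limma called 0 of 19 types (0% called, 0 at an unadjusted p under 0.05, smallest adjusted p = 0.998). The mean log2 value was higher in treated rats for 14 types (73.7%) and lower for 5 (26.3%), and the plain mean was higher for 17 and lower for 2. The treated animals lay at both ends. Treated rat 1, the shallowest, had the highest ratio in 17 of 19 types and treated rat 3 the lowest in 14. In macrophages the ratio was 0.379, 0.393, 0.368 and 0.379 in untreated and 0.4996, 0.408 and 0.344 in treated rats. In PCT it was 0.411, 0.433, 0.386 and 0.390 against 0.498, 0.368 and 0.349. The differences ran from -0.05 in TAL to 0.16 in Mono/Macro cells on the log2 scale, each with an SE of 0.12 to 0.15. The untreated animals thus lay close together in macrophages and the treated ones around them.

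Because no gene counts were at hand to thin each cell, genes were also compared at matched UMIs, as the mean deviation of a cell's genes from the curve of genes on UMIs for its type. B cells, the antibody-making lineage, were the 1 of 19 types called (5.26% called). Their deviation was -2.69%, -3.32%, 9.97% and 5.73% in untreated rats and -11.2%, -8.92% and -12.0% in treated rats. Every treated animal was below every untreated one, and the mean log2 difference was -0.20 ± 0.06 (limma, adjusted p = 0.0463). The types of 1 animal share its library, so they are not independent, while limma's common estimate of the spread treats them as if they were. When each type kept its own spread the adjusted p was 0.316, and with the animal's median UMIs as a covariate it was 0.325. The call was also lost in 6 of the 7 fits that left out 1 animal, with adjusted p-values of 0.0532 to 0.323, and kept without treated rat 3 (0.0366). B cells had too few cells at 1000 to 2000 UMIs to be tested there, and 0 of the 11 types tested in that window were called.

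In the other 18 types the treated animals overlapped the untreated ones, and over all 19 types the mean was lower in treated rats for 15 (78.9%). Treated rat 3 had the lowest deviation of the 7 animals in 16 of 19 types and obese rat 3 the highest in 15. For T cells the values were -4.45%, -2.17%, 5.99% and 2.49% in untreated and -1.13%, 6.44% and -15.2% in treated rats (limma, adjusted p = 0.826). The log2 differences of these 18 types ran from -0.07 in GEC to 0.05 in PST. For monocytes the deviations were -5.61%, -2.32%, 4.62% and 1.99% against 1.07%, 0.504% and -12.2%.

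The mitochondrial share of a cell's UMIs is high in the tubule segments that burn most fuel, and it also rises in damaged cells. Its mean over animals reached 30.7% in TAL/MD cells of untreated rats, and was between 4.76% and 8.11% in their immune types. limma called 0 of 19 types (0% called, 0 at an unadjusted p under 0.05, smallest adjusted p = 0.554). The mean was lower in treated rats for 18 of 19 types (94.7%), with a median difference of -2.58 percentage points over all types, -5.30 over the 12 nephron and duct types and -1.56 over the 5 immune types. The exception was IC-A/B, at 6.69% ± 4.53 and 9.75% ± 13.4.

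The widest differences lay in TAL/MD, DCT and DCT/CNT cells. The difference was smaller in TAL cells than in PST (-6.46 percentage points) or PCT cells (-5.74). TAL/MD cells had 30.3%, 32.8%, 25.3% and 34.4% in untreated and 8.18%, 21.8% and 30.5% in treated rats (-10.5 ± 5.20 percentage points, limma, adjusted p = 0.554). DCT cells had 33.9%, 27.4%, 25.8% and 33.5% against 6.50%, 24.6% and 28.4% (-10.3 ± 5.35, adjusted p = 0.554), and DCT/CNT cells 21.9% ± 2.55 against 14.5% ± 6.97 (-7.44 ± 3.79, adjusted p = 0.554). PCT cells had 23.2%, 24.2%, 18.7% and 19.9% against 6.78%, 16.49% and 24.0%, and PST cells 27.3%, 24.0%, 18.0% and 19.98% against 5.11%, 14.6% and 27.9%. DTL (-4.86 ± 4.11), TAL (-4.05 ± 7.26), PCT/PST (-2.58 ± 3.45), Podo/Stroma (-2.21 ± 4.07) and GEC (-1.97 ± 3.02) differed less. The immune types ranged from -1.95 in B cells to -0.84 in monocytes. Monocytes had 6.55%, 6.34%, 3.66% and 4.97% against 1.64%, 3.23% and 8.76%.

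The 3 treated rats were far apart and in 1 order. Treated rat 1 was the lowest of the 7 animals in 17 of 19 types, and treated rat 3 the highest in 8. In 17 types the order ran from treated rat 1 through treated rat 2 to treated rat 3. Without treated rat 1 the TAL/MD difference shrank to -4.49 ± 3.84 points and that of DCT to -3.67 ± 3.60 (limma, adjusted p = 0.986 each). Without treated rat 3 they were -15.7 ± 4.403 and -14.6 ± 5.23 (adjusted p = 0.0846 each), with 7 of 19 types at an unadjusted p under 0.05 and 0 called. Treated rat 1 was also the shallowest library, and the part of depth or cell quality in these values was not tested.

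**Figure D4:**
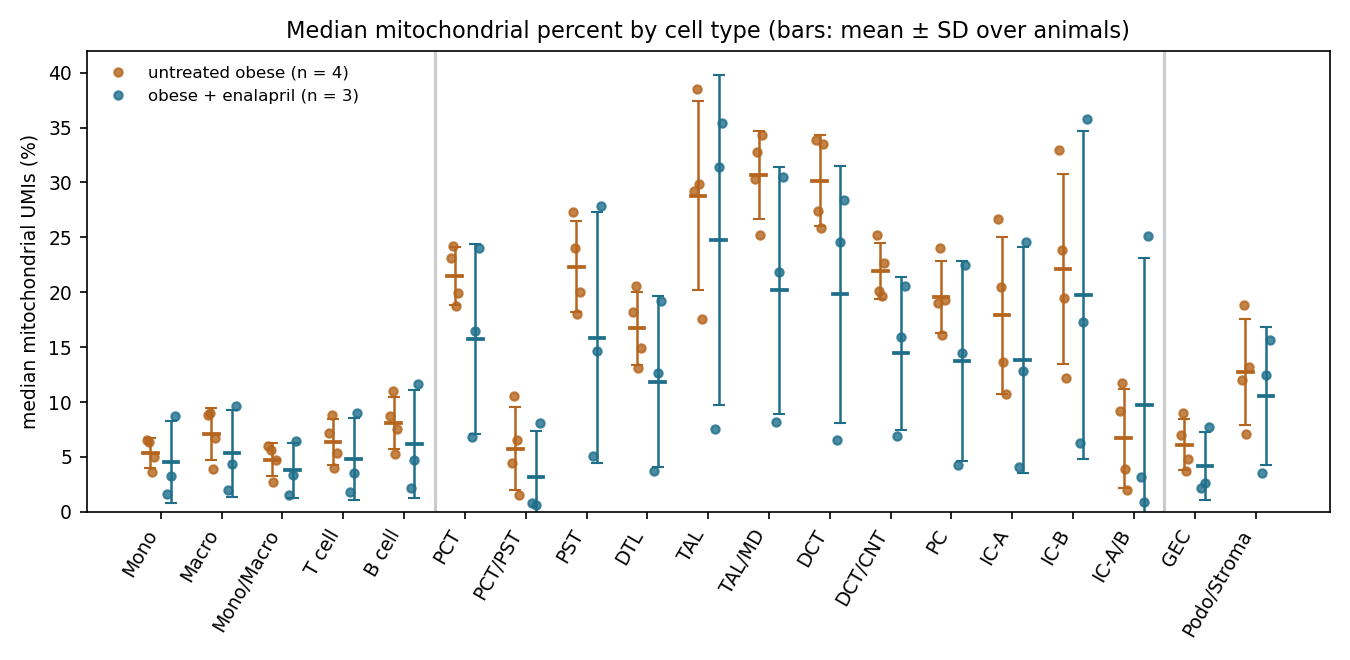
Median mitochondrial percent of UMIs by cell type, with 1 point per animal and bars for the mean and SD over the animals of a group, whose lower ends are cut off by the axis at 0 where they reach below it. Treated rat 1 gives the lowest point in 17 of 19 types. Treated rat 2 lies below all untreated rats in 13 types, and treated rat 3 above all of them in 8 and within their range in 11.

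The authors scored each cell for genes of the S phase, when DNA is copied, and of G2 and mitosis (G2M), and called a phase from the higher score above 0. A call of S or G2M was given to 27.9% ± 5.85 and 16.7% ± 2.66 of nephron and duct cells in treated rats, and neither calls nor scores are read here as dividing cells. limma called 0 of 19 types for the mean G2M score (0% called), with 4 at an unadjusted p under 0.05. For 4 of 19 types (21.1%) the groups did not overlap. The mean was lower in treated rats for 16 of 19 types, with a median difference of -0.00353 over all types.

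DCT cells had mean G2M scores of -0.0148, -0.0154, -0.00688 and -0.0132 in untreated and -0.0202, -0.0209 and -0.0244 in treated rats (-0.00925 ± 0.00303, limma, adjusted p = 0.110). TAL cells had -0.0118, -0.0143, -0.0138 and -0.00764 against -0.0180, -0.0201 and -0.0235 (-0.00861 ± 0.00290, adjusted p = 0.110). In both types all treated animals lay below all untreated ones. IC-A cells did as well, with means of -0.0170 and -0.0241 (-0.00716 ± 0.00328, adjusted p = 0.196). Among cells with 1000 to 2000 UMIs the DCT and TAL differences were -0.00594 ± 0.00496 and -0.00311 ± 0.00413 (limma, adjusted p = 0.749 each), and the groups overlapped.

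Mono/Macro cells went the other way. Their mean G2M score was 0.0209, 0.0151, 0.0222 and 0.0162 in untreated and 0.0401, 0.0243 and 0.0265 in treated rats, without overlap (0.0117 ± 0.00408, limma, adjusted p = 0.110). Their mean S score was 0.00697 against 0.0167 (0.00977 ± 0.00360, adjusted p = 0.319), and was 0.0112 ± 0.00340 without obese rat 2 and 0.0133 ± 0.00339 without treated rat 3, which both passed (limma, adjusted p = 0.0345 and 0.00350). Without treated rat 1, the highest animal, it shrank to 0.00481 ± 0.00316 (adjusted p = 0.995), and the G2M difference to 0.00680 ± 0.00356 (adjusted p = 0.394). The monocytes showed lower S scores in treated rats (0.0108 against 0.00446, -0.00630 ± 0.00280, adjusted p = 0.350). The Mono/Macro type is small, with 72 cells in the animal with the fewest, and had a mean over untreated rats of 6110.5 median UMIs, against 2597 for monocytes and 2708 for macrophages. Whether it holds doublets, droplets with more than 1 cell, was not tested.

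**Figure D5:**
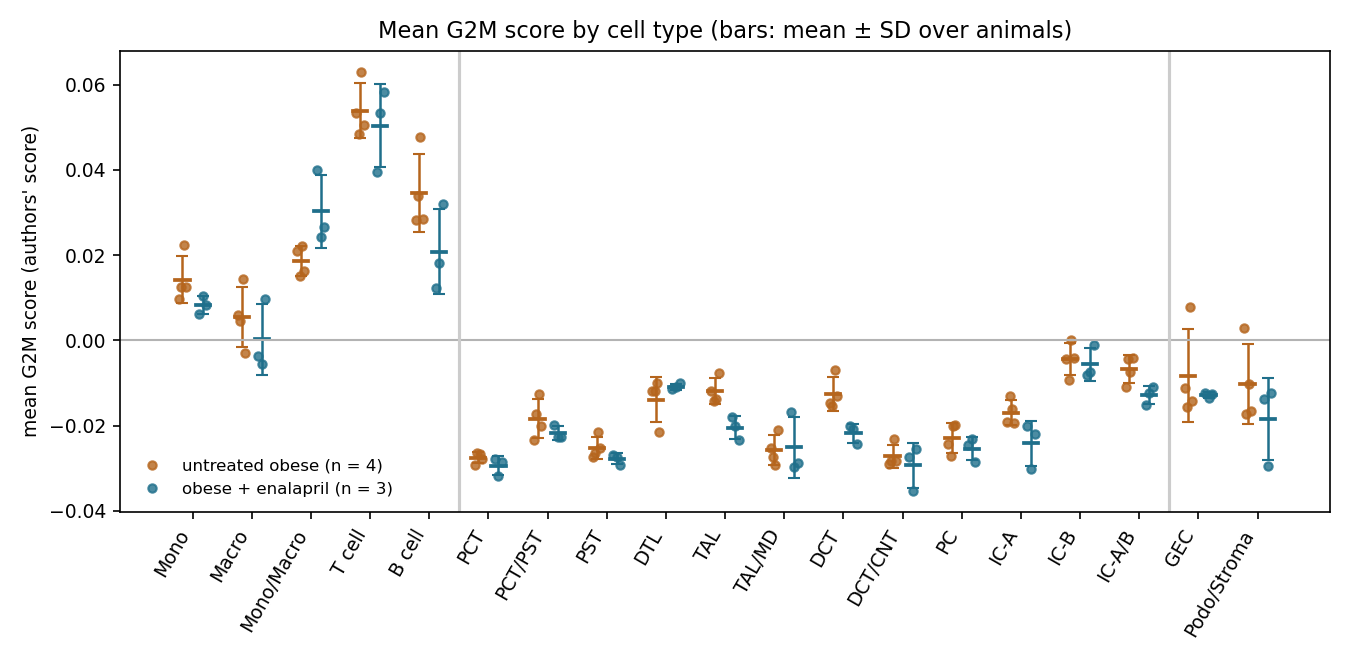
Mean G2M score by cell type in the units of the authors' score, with 1 point per animal and bars for the mean and SD over the animals of a group. The treated points lie below all untreated points in DCT, TAL and IC-A and above all of them in Mono/Macro.

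For the mean S score limma called 0 of 19 types (0% called), with 2 at an unadjusted p under 0.05. The percent of cells called S gave 0 of 19 calls (0 unadjusted, smallest adjusted p = 0.897), and the percent called G2M also 0 of 19 (2 unadjusted, smallest adjusted p = 0.161). IC-A cells were called G2M in 26.4%, 29.9%, 23.6% and 24.2% of untreated and 24.2%, 12.1% and 17.2% of treated cells (-8.15 ± 3.03 percentage points, limma, adjusted p = 0.161). That difference passed without treated rat 1 (-11.3 ± 3.06, adjusted p = 0.0264) and with the animal's median UMIs as a covariate (-10.2 ± 3.06, adjusted p = 0.0261). Without treated rat 2 it shrank to -5.28 ± 3.17 (adjusted p = 0.405). For B cells the percents were 55.3%, 60.2%, 70.6% and 49.6% against 44.8%, 45.2% and 56.0% (-10.2 ± 4.96, adjusted p = 0.385), and without obese rat 4 the difference passed (-13.3 ± 3.78, adjusted p = 0.0234), whereas without obese rat 3 it was -6.33 ± 3.74 (adjusted p = 0.481). T cells, the most often called type, were called G2M in 60.5% of untreated and 58.4% of treated cells on average.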

How the data were processed

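Single-cell RNA libraries (10x 3' v3.1, per the labels' protocols) were made from perfused, digested kidneys after removal of debris and dead cells. Per the submitters' processing notes, Cell Ranger 7.0.1, Seurat 4.3.0 and the rn6 build were used, with no role stated. The deposited table gives for each cell the counts of UMIs and genes, the percent of mitochondrial UMIs, the S and G2M score with the phase, and the cell type, all as the authors made them per the file headers. How cells were filtered, clustered or checked for doublets is not stated in the sources used here. No deposited cell had more than 49.99% mitochondrial UMIs or more than 2971 genes. The mitochondrial and gene measures therefore cover cells up to these values only.

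Cells were summed or averaged per animal. Cell type counts were tested with edgeR 4.0.16 (quasi-likelihood, all 3 groups, total cells as library size), and log2 ratios (pseudocount 0.5) and measures per type with limma 3.58.1 (robust) on 7 animals. Types needed 20 cells in each animal, which left out Uro. Single values had exact permutation tests. Benjamini-Hochberg adjustment ran within each family at a threshold of 0.05. Genes at matched UMIs are residuals of log2 genes on a quadratic in log2 UMIs per type. Without gene counts, cells could not be thinned, and a window of 1000 to 2000 UMIs was used. Named are the types or ratios past the threshold, the 5 with the largest difference in each family, and PCT, PST, PCT/PST, DTL, TAL, DCT, GEC, Podo/Stroma and the immune types for counts, UMIs, genes and mitochondrial percent; further types were named after their values were seen. The scripts were tested on simulated data. Alternatives included DESeq2 1.42.0, other cell filters, a covariate for UMIs and leaving out each animal. The members and lists were chosen with earlier results of these data known.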

Additional observations from a re-analysis of the deposited data

Results flagged for a closer look

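In 7 measures 1 of the 4 untreated obese rats stood far from the other 3, with a gap to its nearest neighbour that took up most of the group's range. Obese rat 4 did so in DTL cells, with 0.608% of its cells against 3.21%, 3.42% and 3.74%, a mean G2M score of -0.0216 against -0.0120 to -0.0101, and 16.96% of DTL cells called G2M against 24.9% to 26.4%. Obese rat 1 had 26.9% of its IC-A/B cells called S, against 31.2% to 31.3%, and a mean S score of -0.00567 in DCT cells, against 0.00123 to 0.00250. Obese rat 2 had 34.3% of its IC-A cells called S, against 29.7% to 30.3%. Obese rat 3 had a mean G2M score of -0.0233 in DCT/CNT cells, against -0.0291 to -0.0282. Chance alone marks about 1 in 20 such groups. Those looked at were the shares of 20 types, 25 ratios, 19 types in each other measure and 11 values per animal. The 7 marked are no more than that rate gives.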

How the results depend on the processing

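Deviations of same-numbered animals from their group mean had correlations of -0.26, 0.39 and -0.44 in cell type shares. In mitochondrial percent the correlations were -0.39, 0.022 and -0.16. So few animals cannot show whether the numbers pair the samples, and the labels give no pairing. The replicate block below is a fit on a shared number only, without a partner for obese rat 4. Only the 7 obese and treated animals gave a number of calls of 1 for cell type counts. DESeq2 gave a number of calls of 1 for cell type counts. Cells with at least 1000 UMIs gave a number of calls of 1 for cell type counts. Replicate block gave a number of calls of 3 for cell type counts, 4 for log2 ratios between cell types, 0 for genes at matched UMIs by cell type, 1 for mean G2M score by cell type, 1 for percent of cells called G2M by cell type. No sharing of the spread gave a number of calls of 1 for log2 ratios between cell types, 0 for genes at matched UMIs by cell type. All 3 groups gave a number of calls of 0 for log2 ratios between cell types. Cells under the median mitochondrial percent gave a number of calls of 0 for log2 ratios between cell types. Cells with 1000 to 2000 UMIs gave a number of calls of 0 for genes at matched UMIs by cell type. Median UMIs of the animal as a covariate gave a number of calls of 0 for genes at matched UMIs by cell type, 1 for percent of cells called G2M by cell type. Cell type counts turned direction (cells under the median mitochondrial percent) in PST (0.97). Log2 median UMIs per cell by cell type turned direction (cells with 1000 to 2000 UMIs) in DTL (0.021), PCT/PST (0.013), DCT (0.077). Log2 median UMIs per cell by cell type turned direction (median UMIs of the animal as a covariate) in DTL (0.019), PCT/PST (0.088), DCT (0.026). Log2 median UMIs per cell by cell type turned direction (replicate block) in TAL (-0.011). Log2 median UMIs per cell by cell type turned direction (mean over cells) in B cell (0.019). Log2 median genes per UMI by cell type turned direction (cells with 1000 to 2000 UMIs) in Macro (-0.051), Mono (-0.038), T cell (-0.093), GEC (-0.066), DTL (-0.037). Log2 median genes per UMI by cell type turned direction (median UMIs of the animal as a covariate) in GEC (-0.0067), DTL (-0.042), PST (-0.056). Log2 median genes per UMI by cell type turned direction (replicate block) in TAL (0.021), DTL (-0.0098), Podo/Stroma (-0.015), PST (-0.0019). Log2 median genes per UMI by cell type turned direction (mean over cells) in B cell (-0.037), PCT/PST (0.0071). Genes at matched UMIs by cell type turned direction (median UMIs of the animal as a covariate) in PCT (-0.0011). Mean S score by cell type turned direction (cells with 1000 to 2000 UMIs) in T cell (0.000624). Single values per animal turned direction (cells with at least 1000 UMIs) in median genes per UMI (-0.00121). Single values per animal turned direction (cells with 1000 to 2000 UMIs) in median UMIs (1.58), median genes per UMI (-0.0124). Cell type counts ranged, over fits that each left out 1 animal, as follows, calls from 0 to 1, TAL -0.20 to 0.30. Log2 ratios between cell types ranged, over fits that each left out 1 animal, as follows, calls from 0 to 4. Log2 median UMIs per cell by cell type ranged, over fits that each left out 1 animal, as follows, PCT -0.16 to 0.50, DCT -0.28 to 0.15, TAL -0.092 to 0.41, DTL -0.52 to 0.23, PCT/PST -0.54 to 0.20. Log2 median genes per UMI by cell type ranged, over fits that each left out 1 animal, as follows, Podo/Stroma -0.020 to 0.069, PCT/PST -0.093 to 0.095, PCT -0.17 to 0.082, DCT -0.047 to 0.043, TAL -0.19 to 0.061, DTL -0.11 to 0.12, PST -0.12 to 0.13, Mono/Macro -0.0048 to 0.25, Macro -0.018 to 0.25, Mono -0.019 to 0.24, T cell -0.010 to 0.24, TAL/MD -0.072 to 0.21, B cell -0.027 to 0.17, GEC -0.037 to 0.088. Genes at matched UMIs by cell type ranged, over fits that each left out 1 animal, as follows, calls from 0 to 1, PCT -0.023 to 0.037, TAL -0.030 to 0.038, IC-B -0.11 to 0.022, T cell -0.13 to 0.031, Mono -0.084 to 0.017, Macro -0.069 to 0.032. Median mitochondrial percent by cell type ranged, over fits that each left out 1 animal, as follows, B cell -4.69 to 0.0600, TAL -9.36 to 4.58, Podo/Stroma -4.77 to 1.32, Mono/Macro -2.33 to 0.141, Mono -2.95 to 0.613. Mean S score by cell type ranged, over fits that each left out 1 animal, as follows, calls from 0 to 1, T cell -0.00661 to 0.000194. Percent of cells called G2M by cell type ranged, over fits that each left out 1 animal, as follows, calls from 0 to 1. Single values per animal ranged, over fits that each left out 1 animal, as follows, median UMIs -590 to 213, median genes -246 to 8.88, median genes per UMI -0.0355 to 0.0368, median mitochondrial percent -4.78 to 2.57, percent of cells with at least 10% mitochondrial UMIs -17.1 to 6.77. Of all values recomputed under an alternative, 1438 kept their direction and side of the threshold or, for numbers of calls, stayed equal or close. Another 84 turned direction, 22 lost a call, 18 gained a call and 31 numbers of calls moved further. The causes of these changes were not tested. With 3 against 4 animals an exact permutation p cannot go under 0.0571, and depth limits the rarest types.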
